A study of Mus musculus with 9 samples.

Results

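Collagen genes were taken as every gene of the count file whose symbol is Col, a number, a and a number, and 44 of the 54232 gene IDs met this rule. They were read in all 9 RNA-seq libraries, and the question was how their levels in naïve and primed pluripotent cells stood to each other and to those of embryonic fibroblasts. Naïve mouse embryonic stem cells (mESCs) resemble the epiblast before implantation, and primed epiblast stem cells (mEpiSCs) resemble it after implantation. The study converted naïve mESCs to primed mEpiSCs and followed both through passages. Poly(A) RNA was sequenced from 2 libraries of each state at P5 (passage 5) and 2 at P15 (passage 15), and from 1 library of mouse embryonic fibroblasts (MEFs).

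All libraries are labelled as strain C57 x CBA. The pluripotent cells came from 1 embryonic stem cell line, OG2, whose mice carry GFP under the distal promoter of *Oct4*, so that both states and both passages share this transgene. Naïve cells were kept in serum and LIF (S/L medium), and primed cells in bFGF and Activin A (F/A medium). Both grew on MEF feeder cells whose division had been stopped with mitomycin C. Whether feeder cells were taken off before RNA was extracted is not given in the sources used here. As the replicates are libraries of 1 line, p-values measure the spread between these libraries only.

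Collagens are secreted or membrane-bound proteins in which chains with a repeated glycine wind into a stiff helical rod. Fibrillar collagens such as types I and III form the fibrils of connective tissue and are made in quantity by fibroblasts. Type IV forms the sheet of basement membranes, which the early embryo lays down around the epiblast, and type VI forms beaded filaments near cell surfaces. Collagens with interrupted helices (FACITs) decorate fibrils, and other classes anchor epithelia, span the plasma membrane or carry a cleavable end with a function of its own, as endostatin does in *Col18a1*.

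Promoter windows from RefSeq (GRCm38.p6, 250 bases before to 50 after a start) were found for 35 of the 44 genes, with 38 windows. The genes with no entry were *Col12a1*, *Col14a1*, *Col1a1*, *Col22a1*, *Col26a1*, *Col2a1*, *Col4a3*, *Col5a2* and *Col9a3*. The windows below belong to the genes on which the results turn. These are *Col4a1* and *Col4a2*, neighbours on opposite strands that moved together, *Col1a2*, the most abundant member in MEFs with an entry, and *Col18a1*, an abundant member that was lower in MEFs than in every other group. Capitals mark matches on either strand to CCAAT, to the GC box GGGCGG and to TATAAA.
*Col4a1*, chr8:11312777-11313076, minus strand: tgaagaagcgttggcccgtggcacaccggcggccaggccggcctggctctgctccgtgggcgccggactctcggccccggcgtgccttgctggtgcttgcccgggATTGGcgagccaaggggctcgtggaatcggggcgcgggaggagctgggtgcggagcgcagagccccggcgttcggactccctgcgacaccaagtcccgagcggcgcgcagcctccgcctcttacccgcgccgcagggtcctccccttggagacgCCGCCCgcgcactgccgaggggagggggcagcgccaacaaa
*Col4a2*, chr8:11312555-11312854, plus strand: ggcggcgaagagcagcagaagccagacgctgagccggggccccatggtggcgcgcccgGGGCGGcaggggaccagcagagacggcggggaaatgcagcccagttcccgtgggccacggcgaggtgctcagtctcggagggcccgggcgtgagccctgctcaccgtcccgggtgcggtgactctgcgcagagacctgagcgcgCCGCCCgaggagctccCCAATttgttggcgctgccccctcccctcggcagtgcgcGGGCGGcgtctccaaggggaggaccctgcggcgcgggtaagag
*Col1a2*, chr6:4505368-4505667, plus strand: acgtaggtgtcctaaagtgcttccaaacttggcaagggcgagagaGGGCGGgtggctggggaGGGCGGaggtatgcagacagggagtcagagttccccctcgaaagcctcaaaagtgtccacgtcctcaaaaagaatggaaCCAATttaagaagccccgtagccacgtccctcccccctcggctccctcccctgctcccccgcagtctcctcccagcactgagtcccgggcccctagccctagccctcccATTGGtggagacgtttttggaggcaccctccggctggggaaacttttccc
*Col18a1*, upstream start, chr10:77166481-77166780, minus strand: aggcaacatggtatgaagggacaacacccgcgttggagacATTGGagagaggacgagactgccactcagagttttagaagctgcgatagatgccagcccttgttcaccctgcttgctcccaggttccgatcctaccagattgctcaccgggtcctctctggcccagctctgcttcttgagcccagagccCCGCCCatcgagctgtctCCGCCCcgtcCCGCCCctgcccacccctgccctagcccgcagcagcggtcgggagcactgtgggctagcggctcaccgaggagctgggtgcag
*Col18a1*, downstream start, chr10:77113656-77113955, minus strand: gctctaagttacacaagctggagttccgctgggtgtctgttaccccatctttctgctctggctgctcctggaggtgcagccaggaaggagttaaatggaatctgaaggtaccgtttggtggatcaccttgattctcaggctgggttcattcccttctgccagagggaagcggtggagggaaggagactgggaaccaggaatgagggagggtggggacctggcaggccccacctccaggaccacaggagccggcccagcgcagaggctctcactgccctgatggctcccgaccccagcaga

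The windows of *Col4a1* and *Col4a2* share their last 78 bases, chr8:11312777-11312854, read in opposite directions. *Col4a1* had 1 CCAAT match and 1 GC box match, *Col4a2* had 1 and 3, and *Col1a2* had 2 and 2. The upstream window of *Col18a1* had 1 CCAAT match and 3 GC box matches, whereas the downstream window had 0 of either. Counts per gene do not tell the starts of *Col18a1* apart. Among all 38 collagen windows, 34.2% held CCAAT, 60.5% the GC box and 13.2% TATAAA, beside 37.4%, 35.7% and 13.6% of the 32851 windows of all genes. GC content was not matched in these shares. A match says only that the letters are there.

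Total counts were 14378051 to 20985136 in naïve and primed libraries and 25646547 in MEFs. CPM are counts relative to library size after TMM scaling by edgeR over all 9 libraries. A count of 0 allows a level of up to 3 counts, which is 0.148 to 0.221 CPM in the pluripotent libraries and 0.128 CPM in the MEF library, which covers counting error only. Values per library are given in the order of replicates 1 and 2, so that the spread between replicates can be read directly. The labels of the states were checked on markers. *Zfp42*, a naïve marker, stood at 213 and 206 CPM in naïve cells and 17.6 and 17 CPM in primed cells at P5, and *Fgf5*, a primed marker, at 1.44 and 1.63 CPM and 120.4 and 121 CPM. At P15 *Zfp42* stood at 232 and 227 CPM in naïve cells and 0.230 and 0.227 CPM in primed cells. *Fgf5* stood there at 1.77 and 1.66 CPM and 143 and 143 CPM. Primed cells at P5 thus held more *Zfp42* than those at P15. Of the defining fibroblast markers, *Dcn*, *Lum*, *Thy1*, *Postn* and *Prrx1* were all above 0 in every library. They did not move as 1 group, since *Dcn* was at 465 and 457 CPM in primed cells at P5, above its 211 CPM in MEFs, whereas *Postn* was at 116 and 111 CPM, far below its 2738 CPM in MEFs.

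The MEF library was the richest in collagen transcripts. Collagen genes took 6.68% of its counts, beside 0.722% and 0.728% in naïve and 0.590% and 0.574% in primed libraries at P5, and 1.24% and 1.33% in naïve and 1.21% and 1.15% in primed libraries at P15. *Col1a1*, *Col1a2* and *Col3a1* alone took 4.60% of the MEF counts and between 0.204% and 0.802% in the other libraries. At least 2-fold higher levels in MEFs than in the group mean were seen for 36 of 44 members against naïve cells at P5, where 23.6% of all genes were that much higher. The count was 33 of 44 against primed cells at P5 (all genes 18.4%), 33 of 44 against naïve cells at P15 (24.2%) and 32 of 43 against primed cells at P15 (19.2%), for which *Col6a4* had too few counts. The median fold of the members was 6.08, 6.10, 4.25 and 5.32 in that order, beside medians of 0.980, 0.971, 1.02 and 0.984 over all genes. A fold was taken as a lower bound for 4, 2, 3 and 4 of these members, whose 2 libraries had no more than 3 counts, and these enter the medians at their bound. A gene entered a comparison with at least 10 counts in MEFs or in a library of the group. Against naïve cells at P5, *Col4a3*, *Col4a4*, *Col6a6*, *Col9a1*, *Col19a1*, *Col25a1* and *Col28a1* had no naïve library above 7 counts. They entered through their 16 to 211 MEF counts and could hardly come out other than higher in MEFs. The same holds in the other comparisons for members with no group library at 10 counts. Against primed cells at P5 these were *Col4a3*, *Col6a5*, *Col10a1*, *Col19a1* and *Col28a1*. Against naïve cells at P15 they were *Col4a3*, *Col4a4*, *Col9a1*, *Col19a1*, *Col23a1* and *Col25a1*. Against primed cells at P15 they were *Col4a3*, *Col4a4*, *Col6a5*, *Col6a6*, *Col19a1*, *Col20a1* and *Col28a1*. With 1 MEF library there is no replicate of these comparisons and no test.

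**Figure D1:**
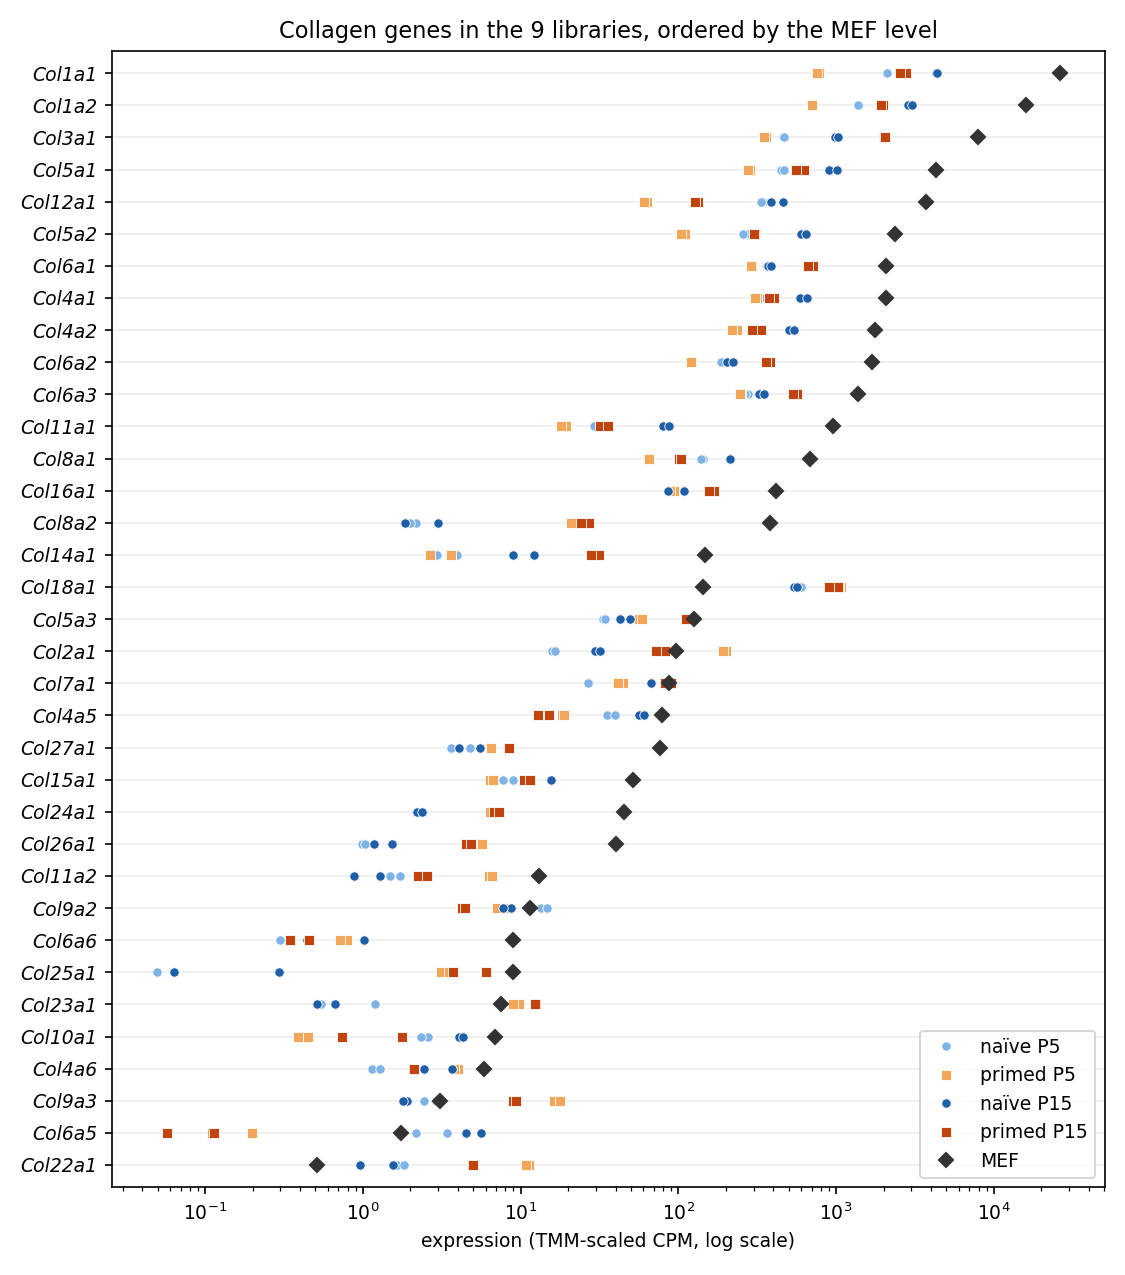
Expression of the 35 collagen genes with at least 5 CPM in any group (x axis, TMM-scaled CPM not divided by gene length, log scale), 1 point per library, with genes ordered by their MEF level. The MEF diamond lies to the right of every other library for most genes, but to the left of all 8 for *Col18a1* and *Col22a1*.

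A few collagens went the other way. *Col18a1* and *Col22a1* were at least 2-fold lower in MEFs than in each of the 4 groups. *Col13a1* and *Col6a4* were that much lower than in naïve cells at P5, *Col2a1* and *Col9a3* than in primed cells at P5, *Col13a1* and *Col6a5* than in naïve cells at P15, and *Col9a3* than in primed cells at P15. Lower levels in MEFs were thus found for 4, 4, 4 and 3 members, beside 26.3%, 23.6%, 23.7% and 20.5% of all genes in the same order. In a bulk library fewer cells of a type and less RNA per cell cannot be told apart, so that a collagen level in the pluripotent libraries may stand for few cells with much RNA or many with little.

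As both states grew on MEFs, the collagen levels are set beside those of 30 fibroblast markers other than collagens. Relative to the MEF library, the 43 collagen genes with at least 10 MEF counts stood at a median of 16.1% in naïve and 15.02% in primed cells at P5, and 23.5% and 18.8% at P15, with the same 4, 2, 3 and 4 members entered at their upper limit. The 29 fibroblast markers with at least 10 MEF counts stood at medians of 16.5%, 16.8%, 17.1% and 25.3% in the same order. The spread was wide for both, with measured values of collagens from 1.67% (*Col12a1*) to 2175% (*Col22a1*) in primed cells at P5. The summed level of the 30 fibroblast markers was 4115 to 4118 CPM in naïve and 4023 to 4106 CPM in primed cells at P5, 4972 to 5253 CPM in naïve and 7201 to 7444 CPM in primed cells at P15, and 18071 CPM in MEFs. These sums include *Mmp3*, a protease of the matrix, which was at 0.128 CPM in MEFs but at 747 and 741 CPM in primed cells at P5 and 999 and 1015 CPM at P15, beside 17.5 and 19.2 CPM and 6.92 and 7.99 CPM in naïve cells. Without *Mmp3* the sums were 4098 to 4099 CPM in naïve and 3282 to 3360 CPM in primed cells at P5, and 4965 to 5245 CPM and 6187 to 6445 CPM at P15. The part of these markers in the collagen levels was not tested.

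**Figure D2:**
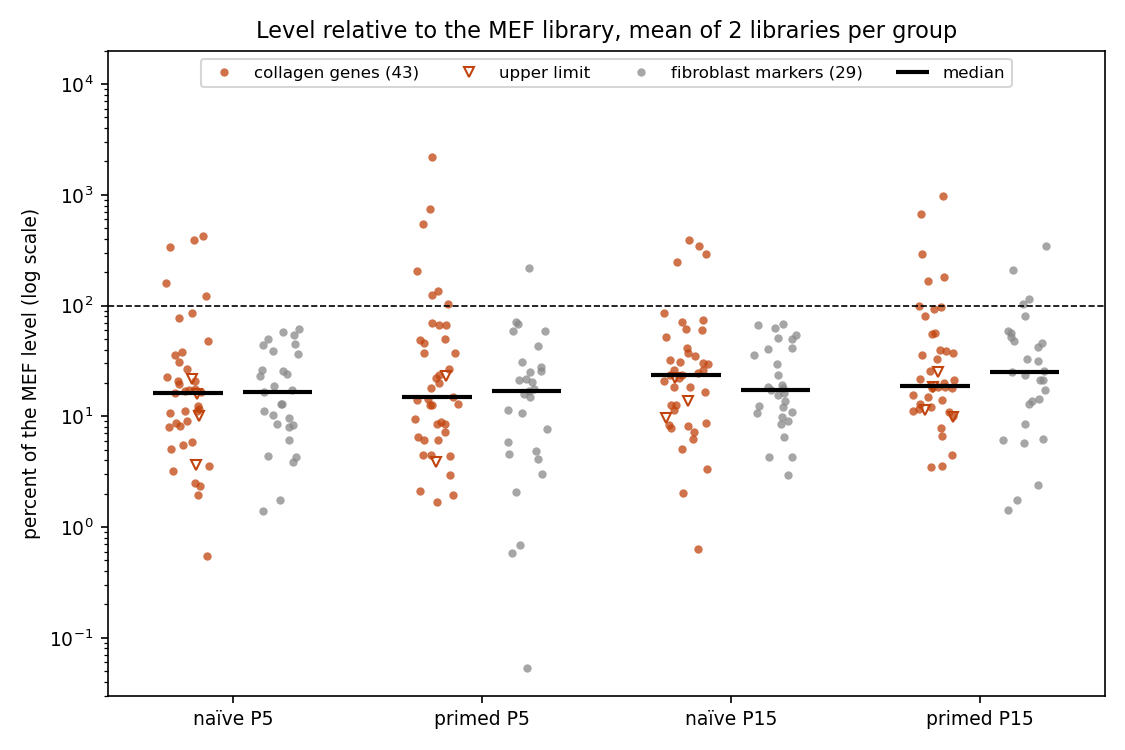
Mean level in each group of naïve or primed cells as a percentage of the MEF level (y axis, log scale) for 43 collagen genes and 29 fibroblast markers, with the dashed line at the MEF level and bars at the medians. Open triangles are upper limits for genes with no more than 3 counts in each library of a group. The collagen medians lie between 15.02% and 23.5%, and the marker medians between 16.5% and 25.3%, with single genes spread over several orders of magnitude.

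At P5, the fibrillar genes *Col1a1*, *Col1a2*, *Col3a1*, *Col5a1*, *Col5a2* and *Col11a1* were lower in primed than in naïve cells, and the other 5 fibrillar genes were higher. In the quasi-likelihood test of edgeR, with p-values adjusted after Benjamini and Hochberg over all genes and a threshold of 0.01, 15 of the 40 collagen genes tested were higher in primed cells and 18 were lower, and 7 did not pass. Of all 16482 genes tested, 31.2% were higher and 31.1% lower, beside 37.5% and 45% of the members. At least 2-fold changes were found for 11 members upward and 8 downward, beside 13.5% and 8.85% of all genes. The median log2 fold change of the members was −0.14, and that of all genes 0.0078. Of the 30 fibroblast markers 9 were higher and 14 lower. These are 30% and 46.7%, beside the 31.2% and 31.1% of all genes, so that the upward share was near that of all genes. Of the markers of extraembryonic endoderm 8 of 11 tested were higher and 3 lower, and of those of mesoderm and primitive streak 6 of 9 were higher and 0 lower. The summed level of the latter was 15.2 to 15.8 CPM in naïve and 165 to 167 CPM in primed cells at P5, 15.2 to 16.1 CPM and 217 to 225 CPM at P15, and 50.4 CPM in MEFs. The sums of primed cells and MEFs came mostly from different genes. *T*, *Eomes* and *Gsc* had means of 98, 39.1 and 15.6 CPM in primed cells at P5, and 0, 0.128 and 0.595 CPM in MEFs. *Meox1*, *Kdr* and *Foxf1* had 2.07, 0.694 and 4.13 CPM in these primed cells, and 35, 7.57 and 6.55 CPM in MEFs. When library sizes were left without TMM factors, 17 members were higher and 16 lower, and the share of upward calls among all genes called went from 50.1% to 65.8%.

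At P15, 19 of the 39 collagen genes tested were higher in primed cells, 14 were lower and 6 did not pass the test (quasi-likelihood test of edgeR, Benjamini-Hochberg adjustment). This was 48.7% and 35.9% of the members, beside 28.2% and 28.4% of 15733 genes. At least 2-fold changes numbered 12 upward and 8 downward, beside 12.2% and 11.0% of all genes, and the median log2 fold change was 0.40 beside −0.0039. Of the fibroblast markers 14 were higher and 7 lower at P15, of the endoderm markers 8 and 1 of 11, and of the mesoderm and streak markers 4 and 1 of 9. The part of these 3 lists in the collagen counts at either passage was not tested. The same direction at both passages was found for 13 members higher and 13 members lower in primed cells. The share of all genes with the same direction at both passages was not counted, so that these numbers stand without a background. *Col3a1*, *Col6a1* and *Col6a2* were lower in primed cells at P5 and higher at P15.

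**Figure D3:**
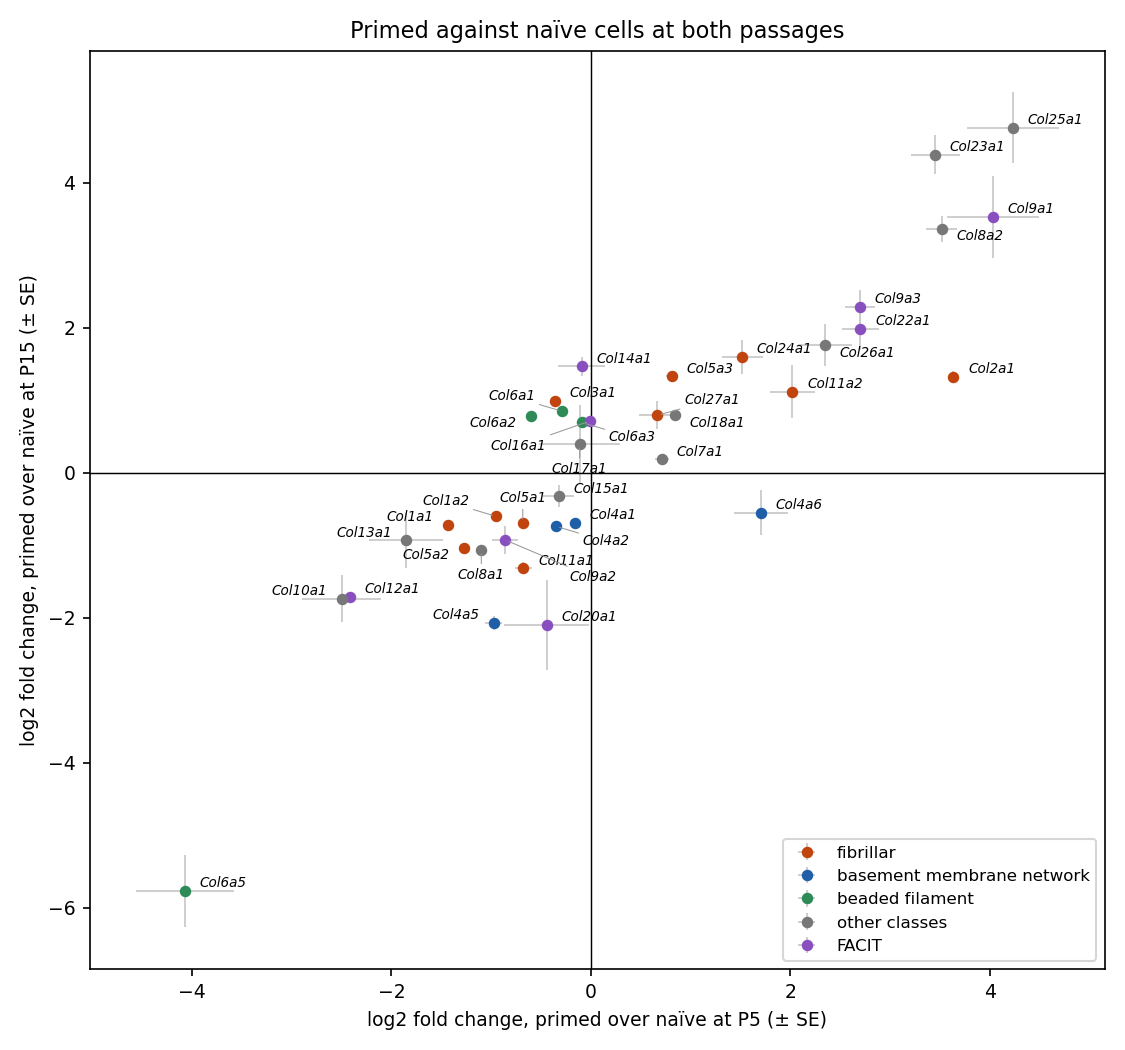
Log2 fold change of primed over naïve cells at P5 (x axis) and P15 (y axis) for the 38 collagen genes tested at both passages, coloured by class, with bars of 1 standard error. *Col25a1*, *Col23a1*, *Col9a1* and *Col8a2* lie farthest up, *Col6a5* farthest down, and *Col3a1*, *Col6a1* and *Col6a2* to the left of 0 at P5 and above 0 at P15.

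Type I collagen, the main protein of fibrils in skin, tendon and bone, is built from the chains of *Col1a1* and *Col1a2*. *Col1a1* (ENSMUSG00000001506, chromosome 11, 94936224 to 94953042) had 2092 and 2116 CPM in naïve cells and 776 and 752 CPM in primed cells at P5, 4272 and 4386 CPM in naïve cells and 2775 and 2532 CPM in primed cells at P15, and 26126 CPM in MEFs. Both primed libraries lay below both naïve libraries at either passage, and both P15 libraries of a state above both of its P5 libraries. The log2 fold change of primed over naïve cells was −1.43 (SE 0.031, adjusted p = 8.99e-26) at P5 and −0.72 (SE 0.053, adjusted p = 1.27e-14) at P15 in edgeR's quasi-likelihood test. The MEF level was 12.4 times that of naïve and 34.2 times that of primed cells at P5, and 6.03 and 9.85 times at P15. *Col1a2* (ENSMUSG00000029661, chromosome 6, 4504814 to 4541544) had 1393 and 1379 CPM in naïve cells and 707 and 699 CPM in primed cells at P5, 2862 and 3018 CPM in naïve cells and 1986 and 1917 CPM in primed cells at P15, and 16045 CPM in MEFs. It followed *Col1a1* in order, with log2 fold changes of −0.95 (P5) and −0.60 (P15).

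Type III collagen, which accompanies type I in soft tissues, comes from *Col3a1* (ENSMUSG00000026043, chromosome 1, 45311538 to 45349706). *Col3a1* had 459 and 468 CPM in naïve cells and 357 and 349 CPM in primed cells at P5, 986 and 1034 CPM in naïve cells and 2016 and 2032 CPM in primed cells at P15, and 7962 CPM in MEFs. Primed cells were below naïve cells at P5 (log2 fold change −0.36, SE 0.034, adjusted p = 1.42e-10) and above them at P15 (0.99, SE 0.052, adjusted p = 7.69e-19), both in edgeR's quasi-likelihood test. Its level per kilobase of exon in primed cells at P15, 206 CPM per kb, came next to that of *Col1a1*, 404 CPM per kb, and above that of *Col1a2*, 157 CPM per kb. In the other groups *Col3a1* stood below *Col1a2* on this scale, as in MEFs with 811 and 1291 CPM per kb. The scale divides by merged exon length, which was 12426 bases for *Col1a2*, 6563 for *Col1a1* and 9816 for *Col3a1*. Undivided, *Col3a1* and *Col1a2* had means of 2024 and 1951 CPM in primed cells at P15. Much of their gap per kilobase thus comes from the length used.

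Type V collagen sits inside type I fibrils and limits their width. *Col5a1* had 450.2 and 469 CPM in naïve cells and 284 and 276 CPM in primed cells at P5, 899.5 and 1012 CPM in naïve cells and 629 and 561 CPM in primed cells at P15, and 4271 CPM in MEFs. *Col5a2* had 269 and 259 CPM in naïve cells and 109 and 105 CPM in primed cells at P5, 597 and 645 CPM in naïve cells and 307 and 304 CPM in primed cells at P15, and 2371 CPM in MEFs. Both were lower in primed cells, with log2 fold changes of −0.68 and −0.70 for *Col5a1* and −1.27 and −1.04 for *Col5a2* at P5 and P15, all past the threshold. The third chain went the other way. *Col5a3* had 33.1 and 34 CPM in naïve cells and 56.7 and 58.8 CPM in primed cells at P5, 42.8 and 49.6 CPM in naïve cells and 123 and 112 CPM in primed cells at P15, and 125 CPM in MEFs, so that primed cells at P15 came near the MEF level. Its log2 fold changes of 0.81 and 1.33 were past the threshold. *Col5a2* lies 24614 bases from *Col3a1* on chromosome 1, end to end, and at P15 these neighbours changed in opposite directions.

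The cartilage collagens of types II and XI include members of both directions. *Col2a1* (ENSMUSG00000022483, chromosome 15, 97975602 to 98004695), the main collagen of cartilage, had 15.7 and 16.5 CPM in naïve cells and 199 and 193 CPM in primed cells at P5, 29.5 and 31.9 CPM in naïve cells and 82.9 and 72.6 CPM in primed cells at P15, and 96.2 CPM in MEFs. The groups did not overlap and primed cells at P5 were the highest of all, at 204% of the MEF level. The log2 fold change of primed over naïve cells was 3.64 (SE 0.056, adjusted p = 1.20e-29) at P5 and 1.33 (SE 0.084, adjusted p = 1.77e-16) at P15 in edgeR's quasi-likelihood test. *Col11a1* had 31.8 and 29.2 CPM in naïve cells and 19.4 and 17.9 CPM in primed cells at P5, 79.5 and 87.3 CPM in naïve cells and 31.9 and 35.6 CPM in primed cells at P15, and 957 CPM in MEFs. It was lower in primed cells at both passages, by log2 fold changes of −0.68 and −1.32, and MEFs exceeded every group by 11.5 to 51.3 times. *Col11a2* had 1.49 and 1.73 CPM in naïve cells and 6.31 and 6.54 CPM in primed cells at P5, 0.884 and 1.28 CPM in naïve cells and 2.24 and 2.56 CPM in primed cells at P15, and 13.1 CPM in MEFs. This scarcer chain was higher in primed cells, with log2 fold changes of 2.02 and 1.12. The P15 call of *Col11a2* (adjusted p = 0.00768) was lost without naïve replicate 1 (adjusted p = 0.0576), without primed replicate 1 (0.0202) and without primed replicate 2 (0.0550).

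*Col24a1* and *Col27a1* encode fibrillar collagens of developing bone and cartilage. *Col24a1* had 2.19 and 2.42 CPM in naïve cells and 6.56 and 6.38 CPM in primed cells at P5, 2.21 and 2.37 CPM in naïve cells and 6.77 and 7.27 CPM in primed cells at P15, and 45.5 CPM in MEFs. *Col27a1* had 4.77 and 3.61 CPM in naïve cells and 6.51 and 6.49 CPM in primed cells at P5, 4.05 and 5.56 CPM in naïve cells and 8.49 and 8.41 CPM in primed cells at P15, and 76.8 CPM in MEFs. For both, all primed libraries lay above all naïve libraries of the same passage and MEFs were highest. The log2 fold changes at P5 and P15 were 1.52 and 1.60 for *Col24a1* and 0.66 and 0.79 for *Col27a1*, all past the threshold. The P5 call of *Col27a1* (adjusted p = 0.00204 in edgeR's quasi-likelihood test) was lost without naïve replicate 2 (adjusted p = 0.0599) or either primed replicate (0.0196 and 0.0156). Its P15 call (adjusted p = 0.000514) was lost without naïve replicate 1 (0.0199).

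Type IV collagen forms the network of basement membranes, and its common form combines the chains of *Col4a1* and *Col4a2*. *Col4a1* (ENSMUSG00000031502, chromosome 8, 11198423 to 11312826) had 358 and 354 CPM in naïve cells and 316 and 306 CPM in primed cells at P5, 593 and 654 CPM in naïve cells and 406 and 373 CPM in primed cells at P15, and 2071 CPM in MEFs. *Col4a2* (ENSMUSG00000031503, chromosome 8, 11312805 to 11449287) had 302 and 293 CPM in naïve cells and 237 and 219 CPM in primed cells at P5, 501 and 543 CPM in naïve cells and 335 and 295 CPM in primed cells at P15, and 1764 CPM in MEFs. The pair was lower in primed cells, slightly at P5 and more at P15, with log2 fold changes of −0.16 (SE 0.035) and −0.69 (SE 0.058) for *Col4a1* and −0.35 (SE 0.039) and −0.74 (SE 0.061) for *Col4a2*. All of them passed the test, but the P5 call of *Col4a1* (adjusted p = 0.000174 in edgeR's quasi-likelihood test) was lost without primed replicate 2 (adjusted p = 0.0321), and its direction at P5 turned to 0.041 when library size alone was used for scaling. These genes start from the shared stretch printed above, overlap by 22 bases at their 5′ ends and had the same direction in the 5 tested comparisons after TMM scaling. With library size alone they differed in sign at P5, with *Col4a2* at −0.15.

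The other pair with values above 5 CPM lies on the X chromosome, head to head with 1308 bases between. *Col4a5* had 35.3 and 39.6 CPM in naïve cells and 18.3 and 18.9 CPM in primed cells at P5, 56.2 and 60.2 CPM in naïve cells and 15.1 and 12.9 CPM in primed cells at P15, and 78.3 CPM in MEFs. *Col4a6* had 1.14 and 1.29 CPM in naïve cells and 4.03 and 3.77 CPM in primed cells at P5, 3.68 and 2.43 CPM in naïve cells and 2.07 and 2.1 CPM in primed cells at P15, and 5.87 CPM in MEFs. At P5 the neighbours differed in direction, *Col4a5* being lower (−0.98) and *Col4a6* higher (1.71) in primed cells on the log2 scale. At P15 *Col4a5* was lower still in primed cells (−2.07), whereas *Col4a6*, at −0.55, did not pass the test. *Col4a3* and *Col4a4*, the chains of kidney and lung basement membranes, stayed at or below 1.49 CPM in every library and could not be tested.

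Type VI collagen forms beaded filaments from the chains of *Col6a1*, *Col6a2* and *Col6a3*. *Col6a1* (ENSMUSG00000001119, chromosome 10, 76708792 to 76726168) had 362 and 363 CPM in naïve cells and 293 and 288 CPM in primed cells at P5, 369.5 and 388 CPM in naïve cells and 710.00 and 663 CPM in primed cells at P15, and 2073 CPM in MEFs. *Col6a2* had 189 and 188 CPM in naïve cells and 122 and 121 CPM in primed cells at P5, 205 and 222 CPM in naïve cells and 383 and 359.8 CPM in primed cells at P15, and 1698 CPM in MEFs. *Col6a3* had 276 and 265 CPM in naïve cells and 250.1 and 246 CPM in primed cells at P5, 327 and 348 CPM in naïve cells and 566 and 533 CPM in primed cells at P15, and 1378 CPM in MEFs. For all 3 genes the mean of primed cells was the lowest at P5 and the highest but for MEFs at P15. Between passages of naïve cells *Col6a1* and *Col6a2* had no call, and *Col6a3* was higher at P15 (0.32 on the log2 scale, past the threshold). The log2 fold changes of primed over naïve cells at P5 were −0.29 for *Col6a1*, −0.60 for *Col6a2* and −0.09 for *Col6a3*, of which the last did not pass the test (adjusted p = 0.0277 in edgeR's quasi-likelihood test). At P15 they were 0.85, 0.79 and 0.69, all past the threshold. The P5 values depended on the scaling, since with library size alone *Col6a3* was higher in primed cells by 0.11 and past the threshold (adjusted p = 0.00707) and *Col6a1* no longer passed (−0.083). Without naïve replicate 2 *Col6a3* was lower in primed cells at P5 by −0.14 and passed the test (adjusted p = 0.00385).

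The later members of the type VI family were scarce. *Col6a5* had 3.43 and 2.18 CPM in naïve cells and 0.199 and 0.111 CPM in primed cells at P5, 5.6 and 4.54 CPM in naïve cells and 0.0574 and 0.114 CPM in primed cells at P15, and 1.74 CPM in MEFs. It was the member with the strongest decrease in primed cells, with P5 and P15 log2 fold changes of −4.07 (SE 0.49) and −5.77 (SE 0.50). Its primed libraries had only 4 and 2 counts at P5 and 1 and 2 counts at P15. The sizes of these decreases are thus uncertain, above all at P15, where neither primed library exceeded 3 counts. *Col6a6* had 0.348 and 0.297 CPM in naïve cells and 0.795 and 0.721 CPM in primed cells at P5, 0.442 and 1.02 CPM in naïve cells and 0.344 and 0.454 CPM in primed cells at P15, and 8.97 CPM in MEFs and passed no test. *Col6a4* stayed at or below 1.29 CPM and was lower in primed cells at P5 (−1.68).

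Among the FACITs, *Col12a1* and *Col14a1* bind the surface of type I fibrils. *Col12a1* had 344 and 332 CPM in naïve cells and 63.5 and 60.3 CPM in primed cells at P5, 389 and 458 CPM in naïve cells and 133 and 127 CPM in primed cells at P15, and 3711 CPM in MEFs. It was lower in primed cells with a log2 fold change of −2.42 (SE 0.043, adjusted p = 3.97e-28) at P5 and of −1.71 (SE 0.066, adjusted p = 4.76e-23) at P15 in edgeR's quasi-likelihood test, and primed cells at P5 were at 1.67% of the MEF level. *Col14a1* had 2.93 and 3.96 CPM in naïve cells and 3.63 and 2.66 CPM in primed cells at P5, 8.91 and 12.2 CPM in naïve cells and 31.3 and 27.9 CPM in primed cells at P15, and 147 CPM in MEFs. The states overlapped at P5 (−0.09, not past the threshold), and at P15 both primed libraries were above both naïve libraries (1.47, past the threshold). *Col16a1* had 91.7 and 96.8 CPM in naïve cells and 94.5 and 88.8 CPM in primed cells at P5, 86 and 109 CPM in naïve cells and 168 and 156 CPM in primed cells at P15, and 415 CPM in MEFs. The states overlapped at P5 (−0.01) and differed at P15 (0.71, past the threshold), while with library size alone *Col16a1* was higher in primed cells at P5 too, by 0.20 (adjusted p = 0.00115).

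The type IX genes, whose product covers cartilage fibrils, did not move together. *Col9a2* had 13.5 and 14.7 CPM in naïve cells and 7.11 and 8.15 CPM in primed cells at P5, 8.69 and 7.74 CPM in naïve cells and 4.25 and 4.43 CPM in primed cells at P15, and 11.5 CPM in MEFs. *Col9a3* had 2.44 and 2.92 CPM in naïve cells and 16.3 and 17.8 CPM in primed cells at P5, 1.92 and 1.79 CPM in naïve cells and 8.95 and 9.37 CPM in primed cells at P15, and 3.1 CPM in MEFs. *Col9a2* was lower in primed cells (−0.86 and −0.93 at P5 and P15) and *Col9a3* was higher (2.70 and 2.29), all past the threshold on the log2 scale. *Col9a1*, below 5 CPM in all groups, was higher in primed cells as well (4.03 and 3.54). Its naïve libraries had only 2 and 5 counts at P5 and 3 and 2 counts at P15, so that these sizes are uncertain. *Col22a1*, a collagen of tissue junctions such as that of muscle and tendon, had 1.64 and 1.83 CPM in naïve cells and 11.4 and 10.8 CPM in primed cells at P5, 1.55 and 0.959 CPM in naïve cells and 4.93 and 5.0 CPM in primed cells at P15, and 0.51 CPM in MEFs. It was higher in primed cells (2.70 and 1.99, both past the threshold), and MEFs, with 0.51 CPM, had less than any other library. *Col20a1* stayed at or below 2.89 CPM and was lower in primed cells at P15 (−2.10), and *Col19a1* was below 1 CPM throughout and was not tested.

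The short-chain collagens of types VIII and X form hexagonal nets. *Col8a1* had 143 and 139 CPM in naïve cells and 64 and 65 CPM in primed cells at P5, 213 and 212 CPM in naïve cells and 100.5 and 105 CPM in primed cells at P15, and 684 CPM in MEFs. *Col8a2* had 2.19 and 1.98 CPM in naïve cells and 21 and 26 CPM in primed cells at P5, 1.84 and 3.01 CPM in naïve cells and 27 and 24.2 CPM in primed cells at P15, and 383 CPM in MEFs. The type VIII chains went in opposite directions, *Col8a1* being lower in primed cells (−1.10 and −1.06) and *Col8a2* higher (3.52, SE 0.16, and 3.36, SE 0.17), all past the threshold on the log2 scale. The MEF level of *Col8a2* was 184 times that of naïve cells at P5 but 16.3 times that of primed cells. *Col10a1*, the collagen of hypertrophic cartilage, had 2.59 and 2.33 CPM in naïve cells and 0.447 and 0.388 CPM in primed cells at P5, 4.05 and 4.28 CPM in naïve cells and 1.78 and 0.738 CPM in primed cells at P15, and 6.85 CPM in MEFs. It was lower in primed cells (−2.50 and −1.74, past the threshold), and the P15 value became −2.47 without primed replicate 1.

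*Col7a1*, which builds the fibrils that anchor the epidermis, had 27.2 and 26.6 CPM in naïve cells and 44.8 and 41.4 CPM in primed cells at P5, 67.3 and 81.7 CPM in naïve cells and 89.3 and 82.1 CPM in primed cells at P15, and 86.8 CPM in MEFs. Primed cells were higher at P5 (0.72, past the threshold), and at P15, where both states were close to the MEF level, the difference of 0.19 did not pass (adjusted p = 0.0302 in edgeR's quasi-likelihood test). The P15 difference passed without naïve replicate 2 (0.31, adjusted p = 0.00172), without primed replicate 2 (0.28, adjusted p = 0.00455) and with library size alone (0.29, adjusted p = 0.00227).

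The transmembrane collagens *Col23a1* and *Col25a1* were among the members with the largest increases in primed cells. *Col23a1* had 1.19 and 0.544 CPM in naïve cells and 9.79 and 8.93 CPM in primed cells at P5, 0.663 and 0.512 CPM in naïve cells and 12.5 and 12.3 CPM in primed cells at P15, and 7.49 CPM in MEFs. *Col25a1*, known from motor innervation of muscle, had 0.0497 and 0.297 CPM in naïve cells and 3.13 and 3.49 CPM in primed cells at P5, 0.295 and 0.064 CPM in naïve cells and 6.03 and 3.75 CPM in primed cells at P15, and 8.89 CPM in MEFs. Naïve libraries had at most 1.19 CPM of *Col23a1* and 0.297 CPM of *Col25a1*, and the primed libraries of *Col23a1* were above the MEF library. Log2 fold changes were 3.45 (SE 0.25) at P5 and 4.39 (SE 0.27) at P15 for *Col23a1*, and 4.23 (SE 0.46) and 4.76 (SE 0.49) for *Col25a1*. As the naïve counts of *Col25a1* were so few, its fold change without 1 naïve replicate ranged from 3.45 to 5.89 at P5 and from 3.98 to 6.07 at P15, and that of *Col23a1* at P5 rose to 4.09 without naïve replicate 1. *Col13a1* stayed at or below 2.49 CPM and was lower in primed cells at P5 (−1.85), and *Col17a1*, a part of hemidesmosomes, stayed at or below 1.36 CPM and passed no test.

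The multiplexins sit in basement membranes. *Col18a1* (ENSMUSG00000001435, chromosome 10, 77052178 to 77166548) had 609 and 602 CPM in naïve cells and 1080.2 and 1044 CPM in primed cells at P5, 539.7 and 566 CPM in naïve cells and 1024 and 906 CPM in primed cells at P15, and 143 CPM in MEFs. All 8 pluripotent libraries were above the MEF library (group means of 387% to 743% of its level), and all primed libraries were above all naïve libraries. The log2 fold change was 0.84 (SE 0.033, adjusted p = 1.10e-19) at P5 and 0.79 (SE 0.058, adjusted p = 1.02e-14) at P15 in edgeR's quasi-likelihood test. Per kilobase of exon, *Col18a1* was the highest collagen in primed cells at P5, with 151 CPM per kb beside 116 for *Col1a1*, and it stood at 20.3 CPM per kb in MEFs beside 3981. The markers of extraembryonic endoderm, another cell type rich in basement membrane, had a summed level of 253 to 262 CPM in naïve and 529 to 541 CPM in primed cells at P5, 163 CPM in both naïve libraries and 393 to 395 CPM in primed cells at P15, and 354 CPM in MEFs. Much of these sums came from *Thbd* and *Dab2*, which MEFs also expressed. *Thbd* had means at P5 of 111 CPM (naïve) and 251 CPM (primed), beside 107 CPM in MEFs. *Dab2* had 38.0 CPM, 103 CPM and 165 CPM in the same order. *Afp* and *Ttr* had at most 0.0574 CPM in any naïve or primed library, and *Apoa1* at most 0.861 CPM. The sums thus do not stand for extraembryonic endoderm alone. At P5, 8 of the 11 markers tested were higher in primed cells and 3 lower, beside 31.2% and 31.1% of all genes. The defining marker *Sox17* was at 0.746 and 0.346 CPM in naïve cells and 29.2 and 28.3 CPM in primed cells. The 3 lower ones were *Lama1*, a laminin chain of basement membranes, with 79.8 and 77.7 CPM in naïve and 26.6 and 24.7 CPM in primed cells, *Cubn* (−4.16 on the log2 scale) and *Amn* (−1.08). The part of these markers in the level of *Col18a1* was not tested.

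*Col15a1*, the other multiplexin, had 7.71 and 9.0 CPM in naïve cells and 6.41 and 6.66 CPM in primed cells at P5, 11.6 and 15.6 CPM in naïve cells and 10.4 and 11.5 CPM in primed cells at P15, and 51.8 CPM in MEFs. Its state differences of −0.32 and −0.32 did not pass the test, but that at P15 did without naïve replicate 1 (−0.54, adjusted p = 0.00303 in edgeR's quasi-likelihood test). *Col26a1*, a collagen known from testis and ovary, had 0.995 and 1.04 CPM in naïve cells and 5.67 and 4.49 CPM in primed cells at P5, 1.18 and 1.53 CPM in naïve cells and 4.48 and 4.89 CPM in primed cells at P15, and 40.4 CPM in MEFs. It was higher in primed cells at both passages (2.35 and 1.76, past the threshold). *Col28a1* stayed below 1 CPM in all naïve and primed libraries and at 4.08 CPM in MEFs.

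From P5 to P15 many collagen levels rose in both states. In naïve cells 17 of the 38 members tested were higher at P15 and 1 was lower (*Col9a2*), in the quasi-likelihood test of edgeR (Benjamini-Hochberg adjustment), where 4.21% of all genes were higher and 5.01% lower. At least 2-fold changes were found for 8 members upward and 0 downward, beside 0.414% and 0.721% of all genes, and the median log2 fold change was 0.44 beside 0.00068. In primed cells 19 of 38 were higher and 8 lower, beside 24.3% and 22.8% of all genes, and the median was 0.48 beside −0.0012. With library size alone, 18 members were higher and 9 lower in primed cells, and the share of upward calls among all genes called went from 51.5% to 34.2%. At least 2-fold changes in primed cells numbered 11 upward and 3 downward, beside 3.18% and 8.43% of all genes. The fibroblast markers rose too, 13 of 29 upward and 3 downward in naïve cells and 24 of 30 upward and 1 downward in primed cells. Their part in the rise was not tested. Of the 6 naïve markers 5 fell and 0 rose in primed cells, *Zfp42* from a mean of 17.3 to 0.228 CPM. In naïve cells 2 fell and 1 rose. The primed libraries of the 2 passages thus differ in naïve markers too, whose part was not tested.

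The genes that rose in both states numbered 15, among them all chains of types I, III and V. The share of all genes that rose in both states was not counted, so that this number stands without a background. On the log2 scale the rise was 1.04 in naïve and 1.76 in primed cells for *Col1a1*, 1.09 and 1.44 for *Col1a2*, 1.12 and 2.49 for *Col3a1*, and 1.62 and 3.19 for *Col14a1*. *Col4a1* and *Col4a2* rose by 0.81 and 0.81 in naïve cells and by 0.29 and 0.44 in primed cells. *Col7a1* rose by 1.48 and 0.96. A rise in primed cells with no call in naïve cells was found for *Col6a1* (1.21), *Col6a2* (1.58), *Col16a1* (0.79) and *Col10a1* (1.54). *Col2a1* and *Col4a5* rose in naïve cells (0.94 and 0.64) and fell in primed cells (−1.37 and −0.44). *Col9a2* fell in both (−0.78 and −0.84). A fall in primed cells with no call in naïve cells was found for *Col11a2* (−1.45), *Col22a1* (−1.19), *Col9a3* (−0.93), *Col4a6* (−0.93) and *Col18a1* (−0.17), of which the change of *Col18a1* was the smallest.

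**Figure D4:**
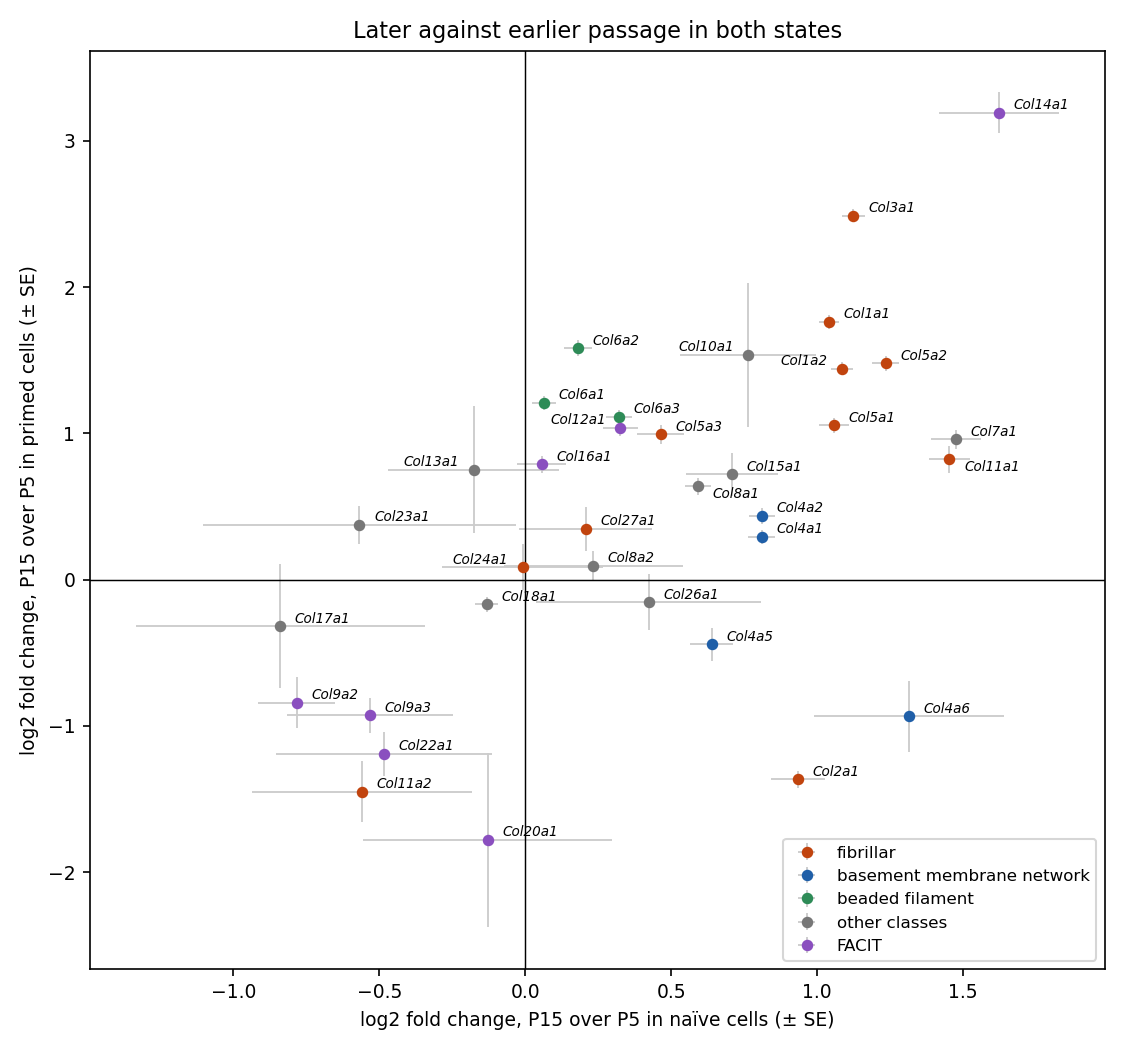
Log2 fold change of P15 over P5 in naïve cells (x axis) and primed cells (y axis) for the 35 collagen genes tested in both states, coloured by class, with bars of 1 standard error. *Col14a1* and *Col3a1* lie farthest to the upper right, and *Col2a1*, *Col4a5* and *Col4a6* lie to the right of 0 and below it.

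Several of these passage calls rested on 1 library. In naïve cells *Col9a2* (adjusted p = 0.00133), *Col15a1* (0.0078) and *Col5a3* (0.0015) no longer passed edgeR's quasi-likelihood test without P15 replicate 2, with adjusted p = 0.0111, 0.0813 and 0.0132, and *Col15a1* also without P5 replicate 1 (0.0138). *Col4a6*, *Col6a2* and *Col6a5*, not called in naïve cells, passed without P15 replicate 2, P15 replicate 1 and P5 replicate 1, with adjusted p = 0.00572, 0.00302 and 0.00613. In primed cells *Col10a1* (0.00915) was lost without either P5 replicate (0.0259 and 0.0396), *Col18a1* (0.00494) without P5 replicate 1 (0.0339) or P15 replicate 2 (0.120), *Col4a5* (0.00115) without P15 replicate 2 (0.0190), and *Col4a6* (0.0017) without P5 replicate 1 (0.0139). *Col25a1* passed without P15 replicate 2 (0.00229).

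Whether the difference between states itself changed with passage was tested as an interaction with all 8 pluripotent libraries in the fit. The difference (P15 minus P5, on the log2 scale) was positive and past the threshold for 11 of 41 members and negative for 7, in the quasi-likelihood test of edgeR (Benjamini-Hochberg adjustment), where 13.3% of all genes were positive and 10.8% negative. It was at least 2-fold for 4 members upward and 3 downward, beside 2.36% and 4.80% of all genes. The positive members included the chains of types I and III and the abundant chains of type VI. *Col6a2* changed by 1.41 (SE 0.070, adjusted p = 1.17e-16), *Col3a1* by 1.37 (SE 0.055, adjusted p = 5.84e-19), *Col6a1* by 1.15, *Col6a3* by 0.80, *Col1a1* by 0.73 and *Col1a2* by 0.36. *Col14a1*, scarce at P5, had the largest positive value, 1.57 (SE 0.26). All 4 type IV members tested were negative, from −0.37 for *Col4a2* to −2.24 for *Col4a6*. *Col2a1* was negative too, by −2.30 (SE 0.11, adjusted p = 2.13e-17). For *Col18a1*, *Col8a1*, *Col8a2* and *Col5a1* the difference was −0.03 (SE 0.064), 0.05 (SE 0.074), −0.14 (SE 0.29) and 0.00 (SE 0.072), and it did not pass. Of the 30 fibroblast markers 17 were positive and 0 negative, and their part was not tested. Of the 6 naïve markers 1 was positive and 4 were negative, and their part was not tested either. With library size alone the counts of members were 10 and 7, and the share of positive calls among all genes called went from 55.0% to 35.2%. The call of *Col5a2* (0.25, adjusted p = 0.00363) was lost without naïve P5 replicate 1, primed P5 replicate 1, primed P5 replicate 2 or naïve P15 replicate 1 (adjusted p = 0.0294, 0.0188, 0.0744 and 0.0305), and with library size alone (0.114).

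Chains of the same or of neighbouring collagens were also set against each other within each library, where the scaling has no part. *Col1a1* had 1.50 and 1.53 counts per count of *Col1a2* in naïve cells at P5 and 1.49 and 1.45 at P15, 1.10 and 1.08 in primed cells at P5 and 1.40 and 1.32 at P15, and 1.63 in MEFs. The ratio of *Col3a1* to *Col1a1* was 0.220 and 0.221 in naïve cells at P5 and 0.231 and 0.236 at P15, 0.460 and 0.464 in primed cells at P5 and 0.726 and 0.803 at P15, and 0.305 in MEFs. The primed libraries thus lay above the MEF library in this ratio and the naïve libraries below it. *Col4a1* and *Col4a2* kept a ratio between 1.17 and 1.40 in all 9 libraries. *Col18a1* over *Col4a1* was 1.70 in both naïve libraries at P5 and 0.911 and 0.865 at P15, 3.42 and 3.41 in primed cells at P5 and 2.53 and 2.43 at P15, and 0.0690 in MEFs. These ratios are of raw counts and are compared between libraries only.

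**Figure D5:**
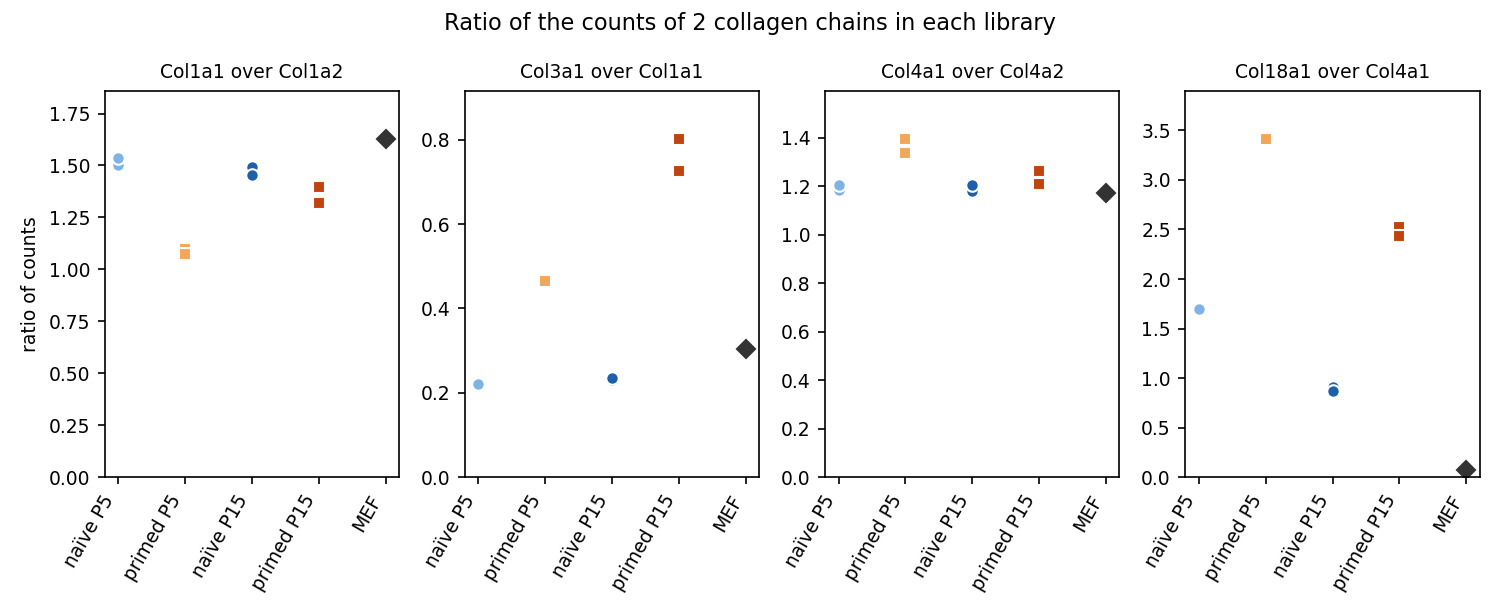
Ratio of raw counts of a pair of collagen genes (y axis, linear from 0) in each of the 9 libraries, 1 panel per pair. *Col3a1* over *Col1a1* is higher in all 4 primed libraries than in MEFs and lower in all 4 naïve libraries, and *Col18a1* over *Col4a1* is lowest in MEFs.

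The genes that modify, fold, process, cross-link or bind collagen were read from a list of 41. At P5, 12 of the 40 tested were higher in primed cells and 18 lower, and at P15 21 of 41 were higher and 9 lower, in edgeR's quasi-likelihood test. These are 30% and 45% at P5 and 51.2% and 22% at P15, beside 31.2% and 31.1%, and 28.2% and 28.4%, of all genes. The cross-linking enzymes were lower at P5, 4 of 5 with 0 higher, among them *Lox*, the lysyl oxidase, with 644 and 643 CPM in naïve cells and 281 and 271 CPM in primed cells at P5, 998 and 963 CPM in naïve cells and 567 and 602 CPM in primed cells at P15, and 3099.5 CPM in MEFs. The changes of *Lox* on the log2 scale were −1.19 and −0.76 at these passages. At P15, 2 of the 5 cross-linking enzymes were lower, *Lox* and *Loxl2* (−0.53), 1 was higher, *Loxl1* (0.20), and 2 did not pass, *Loxl3* (0.0050) and *Loxl4* (−0.17). *Serpinh1*, the collagen chaperone HSP47, had 510.4 and 486 CPM in naïve cells and 588 and 591 CPM in primed cells at P5, 823 and 793 CPM in naïve cells and 1098 and 1034 CPM in primed cells at P15, and 4117 CPM in MEFs. It was slightly higher in primed cells (0.27 and 0.39, past the threshold) and far highest in MEFs.

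The largest increases of the list at P5 were those of *Itga2*, a collagen-binding integrin chain (3.28), *Adamts3*, a procollagen protease (2.41), and *P3h2*, a prolyl hydroxylase (2.28). At P15 *Itga2* (2.60), *Tll2* (2.58) and *P3h2* (2.12) led, where *Tll2*, a protease of the BMP1 family, was at 0.746 and 0.568 CPM in primed cells and 0 and 0.192 CPM in naïve cells. The largest decreases were those of *Pcolce2*, an enhancer of procollagen processing (−2.24 and −1.69 at P5 and P15), *Itga11*, an integrin chain of fibroblasts (−1.87 and −2.36), and *P4ha3*, a prolyl hydroxylase (−1.57 and −1.23). From P5 to P15, 15 of the 39 tested were higher and 2 lower in naïve cells, and 29 of 41 were higher and 1 lower in primed cells. These are 38.5% and 5.13% in naïve and 70.7% and 2.44% in primed cells, beside 4.21% and 5.01%, and 24.3% and 22.8%, of all genes. In primed cells all 5 genes of folding and export and 12 of 13 genes of hydroxylation rose. In the same comparisons 13 of 29 fibroblast markers rose in naïve cells and 24 of 30 in primed cells, and *Loxl1* is in both lists. Their part in these counts was not tested.

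By GENCODE M21, exons of a collagen gene overlapped those of another gene over at most 6.07% of their length, which was *Col9a3* with *Tcfl5* on the opposite strand. Whether strand or multiple alignments were considered by featureCounts is not given in the sources used here, so that reads in such overlaps cannot be told apart.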

How the data were processed

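Gene expression was measured by RNA-seq in 9 libraries. The authors purified poly(A) RNA, trimmed reads with Cutadapt, aligned them to mm10 with HISAT2 and counted them with featureCounts on Ensembl genes. The deposited values are raw counts per gene, not normalized. Versions, the annotation release, the strand setting and the treatment of reads with several alignments are not given in the sources used here. Groups were read from the sample titles, with the columns named early and late taken as P5 and P15. Names and coordinates came from GENCODE M21, and exon length is the merged exon length there. The 92 entries for spike-in RNA, with 0 counts in all, were not used.

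Genes with at least 10 counts in at least 2 libraries of a fit were tested in R 4.3.3 by the quasi-likelihood test of edgeR 4.0.16 after TMM scaling, with Benjamini-Hochberg adjustment over all genes tested. Calls were made at an adjusted p under 0.01. Each state comparison and passage comparison used its 4 libraries, and the interaction used 8. The SE is the log2 fold change divided by the root of the F statistic. MEFs, with 1 library, entered no fit. Their CPM was divided by the group mean, with 3 counts as the floor for a group with no library above 3 counts, for folds and percentages alike. The code was tested on simulated counts over 54232 genes with 200 changed, where 95% to 100% of 2-fold changes were recovered, 95% in the interaction. The changed genes were drawn only from genes with ample expected counts, and the noise beyond counting error was small and the same for all genes. Recovery thus gives no rate for scarce or noisier genes.

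The alternatives tried were library size alone or the size factors of DESeq2 1.42.0 for scaling, its Wald test, no filter on low counts, a replicate block, 1 fit of 8 libraries, each library left out in turn, and for MEFs a fold of at least 4. A block with crossed pairs was chosen after seeing the data. A fit without 1 of 2 replicates assumes that the lone library varies like the other groups. The collagen genes, their classes, the marker lists and the list of collagen-modifying genes were chosen with earlier results of these data known. Members with at least 5 CPM in a group are given per library, those past the threshold in a state comparison by name, and of the collagen-modifying genes the 3 largest changes in each direction at each passage with *Serpinh1* and *Lox*. *Mmp3*, *Lama1*, *Cubn*, *Amn*, *Thbd*, *Dab2*, *Afp*, *Ttr*, *Apoa1* and the other lysyl oxidase genes were named after their values were seen. So were *T*, *Eomes*, *Gsc*, *Meox1*, *Kdr* and *Foxf1*.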

Additional observations from a re-analysis of the deposited data

Results flagged for a closer look

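The difference between primed and naïve cells was not the same at both passages for 18 of the 41 collagen genes tested. Each is listed because the interaction term itself passed edgeR's quasi-likelihood test at an adjusted p under 0.01. The values are the log2 fold change of primed over naïve cells at P15 minus that at P5. By this rule 26.8% of the members were positive and 17.1% negative, beside 13.3% and 10.8% of all genes. For *Col3a1* (1.37), *Col6a1* (1.15) and *Col6a2* (1.41) the state difference turned from negative at P5 to positive at P15, past the threshold at both. For *Col14a1* (1.57), *Col16a1* (0.74) and *Col6a3* (0.80) it passed at P15 with no call at P5. *Col1a1* (0.73), *Col1a2* (0.36), *Col5a2* (0.25) and *Col12a1* (0.72) remained lower in primed cells, by less at P15, and *Col5a3* (0.53) remained higher, by more.

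Among the negative values, *Col4a1* (−0.51), *Col4a2* (−0.37), *Col4a5* (−1.08) and *Col11a1* (−0.62) were lower in primed cells at both passages and more so at P15. *Col2a1* (−2.30) remained higher in primed cells by a smaller amount, and *Col4a6* (−2.24) and *Col7a1* (−0.51) were higher at P5 with no call at P15. The call of *Col5a2* was lost in 4 of the 8 fits that leave out 1 library.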

How the results depend on the processing

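Of the values of single genes under an alternative, 1840 kept their side of the threshold, 38 lost a call and 18 gained one. A further 3 changed direction with a call under either setting. The 3 were *Col4a1* (0.041), *Col6a3* (0.11) and *Col16a1* (0.20) in primed against naïve cells at P5 with library size alone. Changes of direction with no call under either setting are counted among the 1840. An example is *Col14a1* at P5, at −0.09 and at 0.11 with library size alone. That scaling moved the median log2 fold change of all genes to 0.21 at P5, 0.10 at P15, −0.13 from P5 to P15 in primed cells and −0.11 in the interaction. The number of collagen genes that fell from P5 to P15 in naïve cells, 1, became 0 without the low-count filter and 2 with the replicate block, and ranged from 0 to 1 when 1 library was left out, with 0 without naïve P15 replicate 2. In that comparison the calls over all genes also moved, from 660 upward and 786 downward to 228 and 323 without the filter and 1353 and 1430 with the block. At a fold of at least 4 in place of 2, the members lower in MEFs went from 4 to 1 against naïve cells at P5 and from 4 to 0 against naïve cells at P15. Replicates differed by more than counting noise, with a chi-square per gene of 2.10 to 3.28. Libraries with the same replicate number share only that number. Deviations of naïve and primed libraries with the same number correlated at −0.127 at P5 and −0.190 at P15, and between passages at 0.161 and 0.159, over 10001 genes. The replicate block gave 15 members higher and 18 lower at P5, 18 and 13 at P15 and 11 and 7 in the interaction, and the crossed block 15 and 19, 20 and 14, and 11 and 7. Depth limits the scarce members, and the one MEF library leaves all MEF folds without a replicate.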
